A study of Rattus norvegicus with 12 samples.

Results

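The lysosome and proton pump genes described here were 41 rat genes listed by symbol, made up of 8 cathepsins, 7 membrane proteins of the lysosome, 12 hydrolases and their helpers, and 14 subunits of the vacuolar proton pump. A probe set was taken for a member only if the platform annotation gave it exactly 1 symbol, and where a gene had several, the one with the highest mean over the 12 arrays was used. By this rule 40 of the 41 members were measured, of 14211 genes with such a probe set. The remaining member, Npc1, a cholesterol transporter of the lysosomal membrane, had no probe set of its own symbol alone. Hematoma was taken on day 3 from the gap (1.5 mm) of an osteotomy of the left femur in female Sprague-Dawley rats. The groups were YSR (12 weeks, semi-rigid external fixator, offset 15 mm), YR (12 weeks, rigid fixator, offset 7.5 mm), OSR (52 weeks, semi-rigid, offset 15 mm) and OR (52 weeks, rigid, offset 7.5 mm). Each array carried the RNA of 3 animals mixed in 1 pool, with 9 animals and 3 arrays per group, so that the spread between arrays is a spread between pools. All groups carried the osteotomy and an external fixator, and no group of intact animals was analysed here.

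Lysosomes are the acidic compartments in which cells break down proteins, sugars, lipids and engulfed material. The vacuolar proton pump acidifies them with a ring in the membrane (the V0 part) and a head that splits ATP (the V1 part). Cathepsins and the other hydrolases work in the acid lumen, and macrophages, which clear dead cells and clotted blood from a hematoma, are rich in all of them. Osteoclasts use the same pump and cathepsin K to dissolve bone. Many lysosomal genes are known targets of the transcription factors TFEB, TFE3 and MITF, which bind an extended E-box.

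The promoters of 5 members are shown, Lamp1, Ctsd and Atp6v0d1 because they hold the extended E-box, and Naglu and Gusb because they had the smallest p of all members for age and for OR minus YR. Each line gives the 250 bases before the annotated start of the gene from RefSeq (build GRCr8), 5′ to 3′ on the strand of the gene. Capitals mark the E-box CACGTG together with the bases that extend it to TCACGTG or GTCACGTG, on either strand, so that a match on the opposite strand reads CACGTGA or CACGTGAC.
The positions were chr16:83075064-83075313 (- strand) for Lamp1, chr1:206968822-206969071 (- strand) for Ctsd, chr19:50357249-50357498 (- strand) for Atp6v0d1, chr10:86501614-86501863 (+ strand) for Naglu and chr12:32337057-32337306 (+ strand) for Gusb.
Lamp1: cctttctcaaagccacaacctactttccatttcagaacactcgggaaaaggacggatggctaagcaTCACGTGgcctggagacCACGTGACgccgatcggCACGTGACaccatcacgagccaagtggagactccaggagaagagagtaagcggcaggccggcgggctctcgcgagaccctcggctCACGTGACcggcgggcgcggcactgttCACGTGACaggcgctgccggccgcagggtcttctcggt
Ctsd: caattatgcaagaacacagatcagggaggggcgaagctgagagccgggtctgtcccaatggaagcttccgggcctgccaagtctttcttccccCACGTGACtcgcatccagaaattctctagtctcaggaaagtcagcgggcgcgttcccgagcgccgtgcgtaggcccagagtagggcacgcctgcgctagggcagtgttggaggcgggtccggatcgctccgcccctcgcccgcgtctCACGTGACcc
Atp6v0d1: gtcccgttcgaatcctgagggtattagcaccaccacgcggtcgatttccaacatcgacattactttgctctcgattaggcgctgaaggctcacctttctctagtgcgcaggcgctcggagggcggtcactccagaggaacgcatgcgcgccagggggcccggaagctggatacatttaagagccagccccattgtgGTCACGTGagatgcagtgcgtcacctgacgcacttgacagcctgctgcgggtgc
Naglu: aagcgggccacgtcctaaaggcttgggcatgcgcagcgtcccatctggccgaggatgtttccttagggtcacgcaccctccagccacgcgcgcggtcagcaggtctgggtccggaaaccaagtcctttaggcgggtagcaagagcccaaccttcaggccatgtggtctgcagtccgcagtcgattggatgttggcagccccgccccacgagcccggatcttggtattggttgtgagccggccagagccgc
Gusb: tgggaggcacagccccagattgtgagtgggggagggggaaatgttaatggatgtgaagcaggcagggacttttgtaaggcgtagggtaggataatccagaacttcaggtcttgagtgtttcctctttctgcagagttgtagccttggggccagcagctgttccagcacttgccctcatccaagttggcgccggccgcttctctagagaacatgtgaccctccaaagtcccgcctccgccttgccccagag
The Lamp1 sequence held 5 E-boxes, which began 184, 167, 150, 65 and 38 bases before the start, and the last 4 of these were in the GTCACGTG form. The Ctsd sequence held 2 in that form, at 157 and 10 bases before the start, and the Atp6v0d1 sequence held 1, at 54 bases. The Naglu and Gusb sequences held no match. A promoter window of 300 bases, which also takes in 50 bases after the start, was found for 35 of the 41 members, Npc1 included, and not for Atp6v1b2, Atp6v1c1, Atp6v1h, Ctsb, Hexa and Psap. CACGTG was in 9 of the 35 windows (25.7%), against 6.42% of all 33469 promoters of the table. The nested forms TCACGTG and GTCACGTG were each in 8 (22.9%), against 3.2% and 1.85% of all promoters. Besides the 3 members shown, Atp6v0e1, Clcn7, Gaa, Glb1 and Mcoln1 held GTCACGTG, whereas Cd63 held CACGTG alone. These matches are a description of letters and not of binding sites. The windows rest on annotated starts, which were not checked. That of Atp6v0b, counted among those without a match, appears to hold coding sequence.

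The signals were 1-colour intensities in which every array had a trimmed mean of 500.2, and they were analysed as log2 of the signal with values under 1 raised to 1. Gapdh control probe sets gave a log2 ratio of 3′ to 5′ signal, a sign of RNA breakdown, of 6.69 for array 1 of YSR, 2.95 for array 1 of OR and 0.33 to 1.59 for the other 10 arrays. Markers of the named tissue were present, since the summed signal of 6 erythroid genes lay between 8561 and 61871 and that of 5 platelet genes between 14041 and 38284 over the arrays. Markers of fibroblasts, skeletal muscle and other cells were measured in the same arrays, so the tissue was a mixture. In such bulk samples, fewer cells of a type and less RNA per cell cannot be told apart. The 40 members were well measured, as 38 of them had a mean log2 signal among the brightest 25% of all probe sets (at or above 9.17), and the exceptions were Mcoln1 (8.93) and Clcn7 (7.17).

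Differences between groups were small for these genes. None of the 40 members passed an adjusted p of 0.05 (limma, Benjamini-Hochberg over 31042 probe sets) in any of 7 comparisons, and none differed by more than 2-fold. Few features passed that adjusted p anywhere on the array. The share of probe sets called was 0.00322% for OSR minus YSR, 0.00322% for OR minus YR and 0.00644% for age (old minus young, averaged over fixation). It was 0% each for YR minus YSR, OR minus OSR, fixation (rigid minus semi-rigid, averaged over age) and the interaction (OR minus YR, minus OSR minus YSR). Differences above 2-fold were more common. At an unadjusted p under 0.05 by the test of the authors' methods, 467 to 795 of 31042 probe sets a comparison differed by more than 2-fold. That is still a small share, and it includes dim probe sets, so 0 of 40 members is close to it. The 95% confidence interval of the difference lay within a 2-fold change for 39 of 40 members for age and for OSR minus YSR, for 38 for OR minus YR, YR minus YSR, OR minus OSR and fixation, and for 37 for the interaction. The exceptions were the chloride-proton exchanger Clcn7 throughout, the pump subunit Atp6v0a1 in every comparison but age and OSR minus YSR, and Ctsc in the interaction. These data thus bound the difference of most members to less than 2-fold and do not exclude smaller ones.

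**Figure D1:**
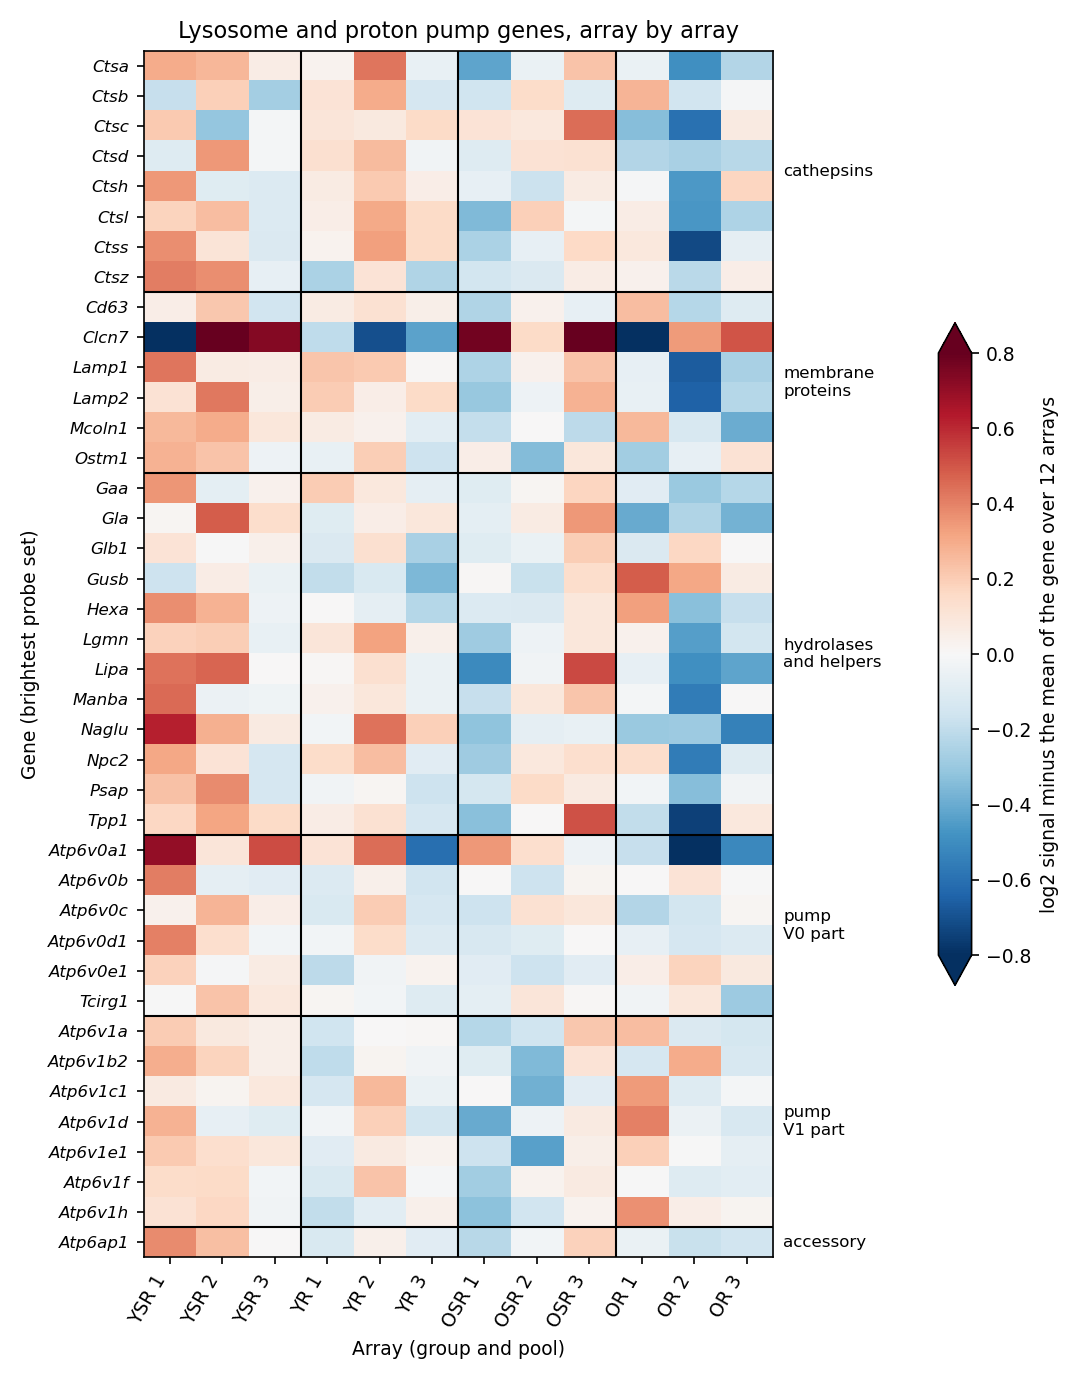
Log2 signal of the 40 measured members in each of the 12 arrays, minus the mean of the gene over all arrays; red is above and blue below that mean, and the scale ends at 0.8 in either direction. YSR arrays 1 and 2 lie above the mean for most members and OR array 2 lies below it for most cathepsins and hydrolases.

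At an unadjusted p under 0.05, 7 of 40 members (17.5%) were lower and 1 (2.5%) was higher in old than in young groups, against 3.89% and 4.7% of all probe sets. Among the 7761 probe sets in the same brightest 25%, 8.75% were lower and 5.14% higher. The count of 7 was 2 without OSR array 1 and likewise without OR array 2, 3 without YR array 2, 4 without YSR array 2 and likewise without OR array 3, and 1 without the intensity trend in the variance. By sign alone, 37 of 40 members were lower in old animals (34 after quantile normalization), with a median difference of -0.15, against 14572 of 31042 probe sets and a median of 0.02. Of the brightest 25%, 4308 of 7761 were lower, with a median of -0.02. Clcn7, Gusb and Glb1 were the 3 members with a higher mean in old animals.

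Naglu, which encodes a hydrolase of heparan sulfate breakdown, had the smallest p of all members for age. Its log2 signal was 10.18, 9.85 and 9.63 in the YSR arrays, 9.54, 9.99 and 9.75 in YR, 9.24, 9.49 and 9.50 in OSR and 9.26, 9.27 and 9.02 in OR. Every old array lay below every young array. The difference for age was -0.53 (standard error 0.12, adjusted p = 0.212), with a 95% interval of -0.79 to -0.26, and it did not pass. It was -0.48 for OSR minus YSR and -0.58 for OR minus YR. Over the 20 alternatives for age its adjusted p lay between 0.138 and 0.51.

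**Figure D2:**
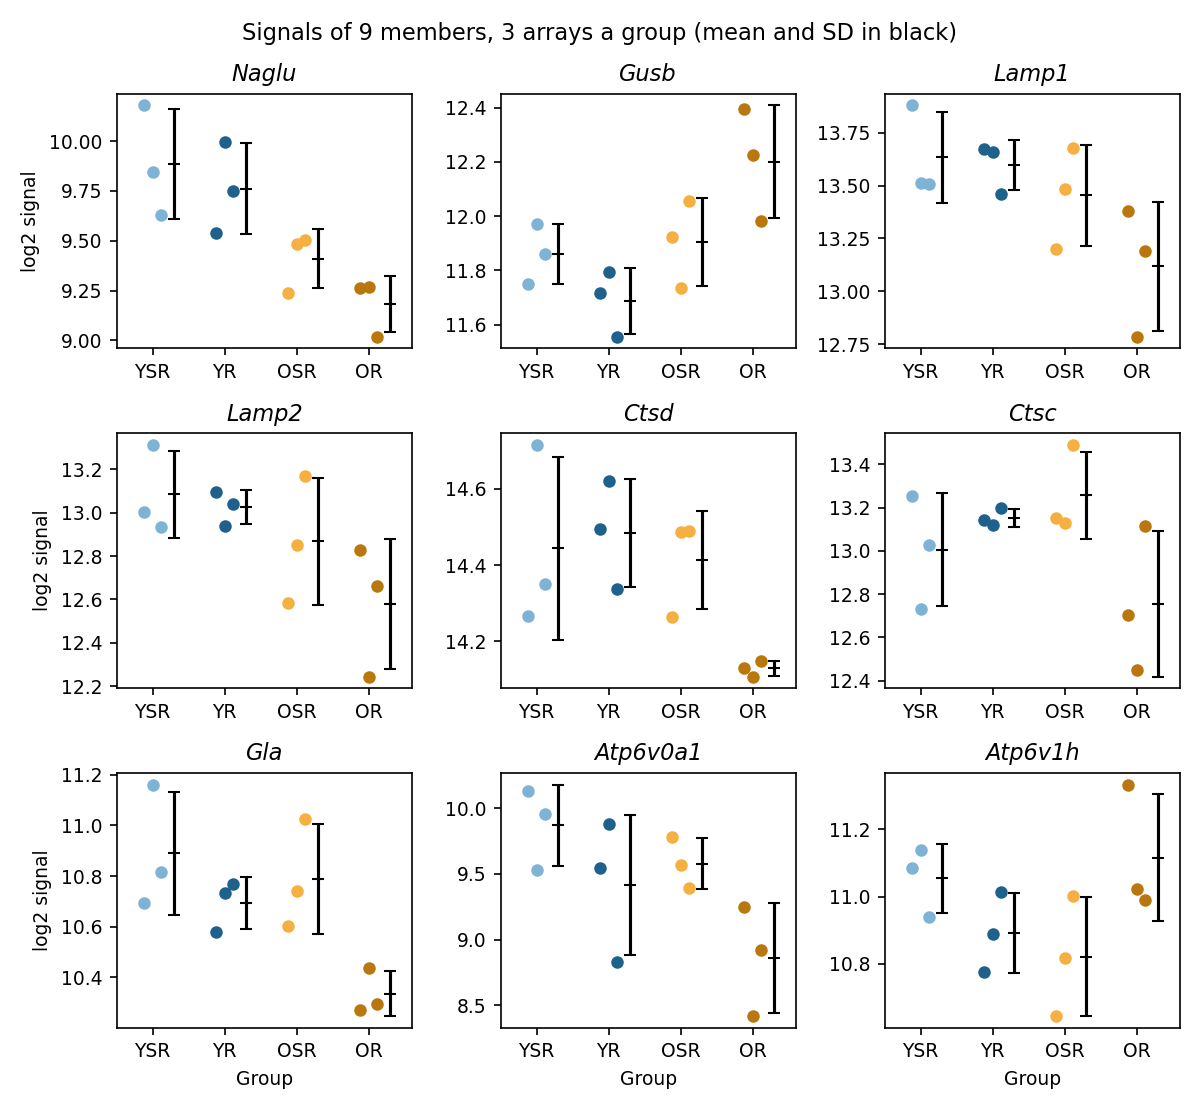
Log2 signal of 9 members in each array (coloured points) with the group mean and SD in black (n = 3 arrays). Naglu is lower in all 6 old arrays than in all 6 young arrays, Gusb is highest in OR, and for Lamp1, Lamp2, Ctsd and Gla the 3 OR arrays lie below the 3 YR arrays.

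Between OR and YR, the rigid groups, 6 of 40 members (15%) were lower and 1 (2.5%) was higher at an unadjusted p under 0.05, against 3.54% and 4.8% of all probe sets. Among the brightest 25% the shares were 7.07% and 5.23%. The count of 6 was 2 without YR array 1, without YR array 2, without OR array 2, or without the intensity trend. By sign, 27 members were lower (median -0.10), against 14224 of 31042 probe sets (median 0.04) and 4141 of the 7761 brightest (median -0.02). The median difference was -0.37 for the 8 cathepsins, -0.28 for the 12 hydrolases and helpers, -0.10 for the 6 measured membrane proteins and 0.04 for the 14 pump subunits. Without OR array 2, which was lowest for most members of the first 2 classes, these medians became -0.20 for cathepsins and -0.08 for hydrolases. The membrane median became -0.26 without OR array 1, and the pump median -0.07 without that array and -0.01 without YR array 1, with a range of -0.072 to 0.091 as single arrays were left out. No test was made between classes.

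**Figure D3:**
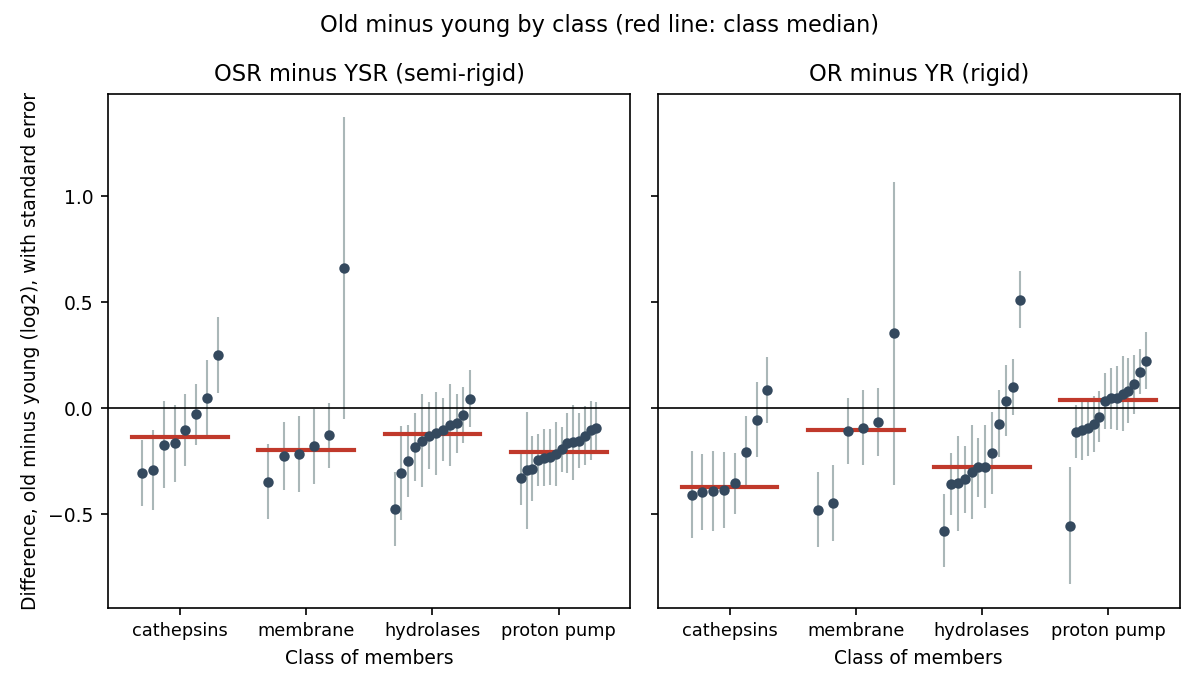
Difference of old minus young (log2, vertical axis) for each member as a point with its standard error, ordered by size within a class, for semi-rigid (left) and rigid fixation (right); the red line is the median of the class. The pump median is -0.21 on the left and 0.04 on the right, and the cathepsin median -0.135 and -0.37.

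Among cathepsins, the proteases of the lysosome, 7 of 8 had a lower mean in OR than in YR and Ctsz was the exception (0.08). Ctsd, an aspartic protease, read 14.27, 14.71 and 14.35 in the YSR arrays, 14.50, 14.62 and 14.34 in YR, 14.27, 14.49 and 14.49 in OSR and 14.13, 14.11 and 14.15 in OR. The OR arrays lay close together and below all arrays of YR, whereas YSR, YR and OSR overlapped. The difference for OR minus YR was -0.35 (standard error 0.14, adjusted p = 0.544). Ctsc, which activates the serine proteases of immune cells, read 13.25, 12.73 and 13.03 in the YSR arrays, 13.14, 13.12 and 13.20 in YR, 13.15, 13.13 and 13.49 in OSR and 12.70, 12.45 and 13.12 in OR. Its OR arrays 1 and 2 were the lowest of all 12, with the third close to YR, and the difference was -0.40 (standard error 0.18, adjusted p = 0.589) for OR minus YR and -0.50 (standard error 0.18, adjusted p = 0.896) for OR minus OSR. It was 0.25 for OSR minus YSR, and the interaction was -0.65 (standard error 0.25, adjusted p = 0.99). Without OR array 2 the value for OR minus YR was -0.24. A dimmer probe set of Ctsc gave -0.17 for OR minus YR and -0.15 for the interaction, but 0.05 for OR minus OSR, the opposite sign.

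Ctsa, a carboxypeptidase that also protects other hydrolases, had a difference for age of -0.34 (standard error 0.13, adjusted p = 0.487) and read 14.21, 14.18 and 13.97 in the YSR arrays, 13.94, 14.34 and 13.85 in YR, 13.49, 13.86 and 14.14 in OSR and 13.86, 13.42 and 13.68 in OR. OSR arrays 2 and 3 and OR array 1 overlapped with the young arrays. The cysteine proteases Ctsl and Ctss, which cut matrix and antigens, differed by -0.39 and -0.41 for OR minus YR and by -0.28 and -0.29 for age. The dimmer probe set of Ctsl gave -0.54 and -0.45 (adjusted p = 0.316 for age). For the other cathepsins the difference for age was -0.07 for Ctsc, -0.16 for Ctsh, -0.11 for Ctsz and a value within 0.01 of 0 for Ctsb. All 8 cathepsins had a lower mean in old animals by sign, also after quantile normalization.

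The lysosome-associated proteins Lamp1 and Lamp2, which form the coat on the inner face of the lysosomal membrane, showed a similar pattern. Lamp1 read 13.88, 13.51 and 13.51 in the YSR arrays, 13.67, 13.66 and 13.46 in YR, 13.20, 13.48 and 13.68 in OSR and 13.38, 12.79 and 13.19 in OR. All 3 OR arrays were below all 3 YR arrays, and the differences were -0.48 (standard error 0.18, adjusted p = 0.497) for OR minus YR and -0.33 (standard error 0.13, adjusted p = 0.479) for age. Its 2 other probe sets were dim, with mean log2 signals of 6.31 and 4.14, and gave -0.29 and 0.64 for age. Lamp2 read 13.01, 13.31 and 12.94 in the YSR arrays, 13.10, 12.94 and 13.04 in YR, 12.59, 12.85 and 13.17 in OSR and 12.83, 12.24 and 12.66 in OR. Its OR arrays were likewise all below those of YR, with -0.45 (standard error 0.18, adjusted p = 0.538) for OR minus YR and -0.33 (standard error 0.13, adjusted p = 0.479) for age, and its dimmer probe set gave -0.26 and -0.28. Without OR array 2 the value for OR minus YR was -0.28.

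Most other membrane proteins differed less. Cd63, a tetraspanin of late endosomes, differed by -0.11 for OR minus YR, the calcium channel Mcoln1 by -0.09 and Ostm1, the partner of Clcn7, by -0.07. Clcn7 read 5.04, 8.38 and 7.90 in the YSR arrays, 6.96, 6.46 and 6.74 in YR, 7.94, 7.32 and 8.04 in OSR and 6.04, 7.50 and 7.67 in OR. Its lowest values were in YSR array 1 and OR array 1, the arrays with the highest Gapdh 3′ to 5′ ratio, and its difference for age was 0.51 (standard error 0.50, adjusted p = 0.809). The part of the ratio in this difference was not tested.

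Among the hydrolases and their helpers, 10 of 12 were lower by sign in old animals, and Gusb and Glb1, which both cut sugars from glycans, were not. Gusb, the beta-glucuronidase, read 11.75, 11.97 and 11.86 in the YSR arrays, 11.72, 11.79 and 11.55 in YR, 11.92, 11.73 and 12.06 in OSR and 12.40, 12.22 and 11.98 in OR. All OR arrays lay above those of YR, and OR arrays 1 and 2 above every other array. The difference was 0.51 (standard error 0.13, adjusted p = 0.306) for OR minus YR, with a 95% interval of 0.22 to 0.80, 0.30 (standard error 0.13, adjusted p = 0.901) for OR minus OSR and 0.04 for OSR minus YSR. The interaction was 0.47 (standard error 0.19, adjusted p = 0.99). Over the 21 alternatives the adjusted p for OR minus YR lay between 0.228 and 0.708.

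Gla, the alpha-galactosidase that acts on glycolipids, had the opposite sign. It read 10.69, 11.16 and 10.81 in the YSR arrays, 10.58, 10.73 and 10.77 in YR, 10.60, 10.74 and 11.03 in OSR and 10.27, 10.44 and 10.30 in OR. The 3 OR arrays were the lowest of all 12. The difference was -0.45 (standard error 0.15, adjusted p = 0.896) for OR minus OSR, -0.36 (standard error 0.15, adjusted p = 0.551) for OR minus YR, -0.33 (standard error 0.10, adjusted p = 0.845) for fixation and -0.23 (standard error 0.10, adjusted p = 0.574) for age. A dimmer probe set of Gla gave -0.39 for OR minus YR and -0.31 for age. Lgmn, an asparaginyl protease that processes cathepsins, read 14.62, 14.63 and 14.37 in the YSR arrays, 14.52, 14.75 and 14.47 in YR, 14.15, 14.39 and 14.52 in OSR and 14.47, 13.99 and 14.29 in OR, with -0.26 (standard error 0.11, adjusted p = 0.548) for age. OR arrays 2 and 3 and OSR array 1 lay below all young arrays, and the other old arrays overlapped with them.

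For the remaining hydrolases the differences for OR minus YR and for age, in this order, were -0.35 and -0.33 for the acid lipase Lipa, -0.30 and -0.23 for the peptidase Tpp1, -0.28 and -0.18 for the glycogen-degrading Gaa, and -0.21 and -0.15 for the mannosidase Manba. The hexosaminidase subunit Hexa gave 0.04 and -0.11 and the beta-galactosidase Glb1 0.10 and 0.03. Of the helpers, the cholesterol carrier Npc2 gave -0.28 and -0.20 and Psap, the precursor of the sphingolipid activators, -0.07 and -0.10. None of these 8 had an unadjusted p under 0.05 in any of the 7 comparisons.

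Of the 14 proton pump subunits, 8 had a higher mean in OR than in YR. Of the 7 V1 subunits, 6 were higher by sign in OR (median 0.05), and of the 6 V0 subunits 2 were (median -0.07). Atp6v1h, a regulatory subunit of the V1 part, read 11.09, 11.14 and 10.94 in the YSR arrays, 10.77, 10.89 and 11.01 in YR, 10.64, 10.82 and 11.00 in OSR and 11.33, 11.02 and 10.99 in OR. OR array 1 was the highest of all 12, and the difference was 0.29 (standard error 0.13, adjusted p = 0.901) for OR minus OSR (0.19 without OR array 1) and 0.22 for OR minus YR. Atp6v0a1, a large subunit of the V0 part, had the most negative difference of the pump for OR minus YR, OR minus OSR, fixation and age. It read 10.13, 9.53 and 9.95 in the YSR arrays, 9.54, 9.88 and 8.83 in YR, 9.78, 9.57 and 9.39 in OSR and 9.25, 8.41 and 8.92 in OR. Its lowest values were OR array 2, YR array 3 and OR array 3, and its differences were -0.72 (standard error 0.28, adjusted p = 0.901) for OR minus OSR, -0.59 (standard error 0.20, adjusted p = 0.845) for fixation and -0.42 (standard error 0.20, adjusted p = 0.581) for age.

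Between the semi-rigid groups, 15470 of 31042 probe sets were lower in OSR than in YSR (median 0.00), and 4411 of the 7761 brightest (median -0.03). All 14 pump subunits had a lower mean in OSR, with a median of -0.21. The largest of these were Atp6v1e1, a stalk subunit that joins the head to the membrane ring, with -0.33 (standard error 0.13, adjusted p = 0.959), and Atp6v0d1, which couples the parts, with -0.24 (standard error 0.12, adjusted p = 0.959), together with Atp6v0a1 and Atp6v1b2 (-0.29 and -0.29). These counts rest on the brightest probe set, and the second probe sets of Atp6v1b2 and Atp6v1a gave 0.36 and 0.21. In YSR array 1 that of Atp6v1b2 read 9.45, against 12.31 and 11.96 in the other YSR arrays. Atp6v1e1 read 11.92, 11.84 and 11.79 in YSR and 11.54, 11.27 and 11.75 in OSR, so that the groups did not overlap, and its difference was -0.20 without OSR array 2. Atp6v0d1 read 12.45, 12.18 and 12.03 in YSR and 11.92, 11.95 and 12.05 in OSR, where OSR array 3 overlapped with YSR array 3, and its difference was -0.13 without YSR array 1. YSR array 1, with the Gapdh ratio of 6.69, was also the highest of the 12 arrays in the mean of the pump subunits (0.245 above their overall mean). Without it and OR array 1 the median for OSR minus YSR was -0.145. The part of the ratio in this difference was not tested.

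Over all members, 36 of 40 were lower by sign in OSR than in YSR (median -0.17), and 2 (5%) were lower and 0 higher at an unadjusted p under 0.05, against 2.33% and 2.03% of all probe sets. The 2 were Naglu, with -0.48 (standard error 0.17, adjusted p = 0.959), and Atp6v1e1. The count was 0 without YSR array 1, 1 without YSR array 2, OSR array 1 or OSR array 2, 5 without YSR array 3 and 7 without OSR array 3. Class medians were -0.135 for cathepsins, -0.20 for membrane proteins and -0.12 for hydrolases, and without OSR array 1 they were -0.045, -0.064 and -0.009. Cathepsins were at -0.08 without YSR array 1 and at -0.23 without YSR array 3. Hydrolases were at -0.21 without YSR array 3 and without OSR array 3.

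Differences with fixation were small as well, and none passed the test. For YR minus YSR, 31 of 40 were lower by sign (median -0.14), against 16332 of 31042 probe sets and 3756 of the 7761 brightest. At an unadjusted p under 0.05, 1 member (2.5%) was lower and 0 higher, against 2.77% and 1.6% of all probe sets. That member was Ctsz, a carboxypeptidase, with -0.37 (standard error 0.16, adjusted p = 0.991). It read 13.46, 13.43 and 12.99 in the YSR arrays, 12.81, 13.17 and 12.82 in YR, 12.91, 12.94 and 13.12 in OSR and 13.09, 12.84 and 13.11 in OR. YSR arrays 1 and 2 stood above all others. The next smallest p were those of the pump accessory protein Atp6ap1, with -0.26 (standard error 0.13, adjusted p = 0.991), and of Hexa, with -0.30 (standard error 0.17, adjusted p = 0.991). All 14 pump subunits were lower by sign (median -0.15), as they were for OSR minus YSR, with which this comparison shares the YSR arrays. The count of 1 was 0 without YSR array 2, YR array 1 or YR array 3, 2 without YR array 2 or OR array 1, and 4 without YSR array 3.

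For OR minus OSR, 26 of 40 members were lower by sign (median -0.10), against 15142 of 31042 probe sets and 3608 of the 7761 brightest. At an unadjusted p under 0.05, 3 (7.5%) were lower, namely Gla, Ctsc and Atp6v0a1, and 2 (5%) were higher, namely Gusb and Atp6v1h, against 2.43% and 2.83% of all probe sets. The second probe sets of Ctsc and Gla gave 0.05 and -0.43. The lower count was 7 without OSR array 1 and 1 without OSR array 3 or OR array 2. The higher count was 0 without any one of YSR array 2, YSR array 3, YR array 1, YR array 2, OSR array 1, OSR array 2 and OR array 1, and 1 without any one of YSR array 1, YR array 3 and OR array 2. The pump subunits were lower by sign in 6 of 14 (median 0.07, and 0.001 without OR array 1). Averaged over age, fixation gave 31 of 40 lower (median -0.09), against 15691 of 31042 probe sets and 3550 of the 7761 brightest. At an unadjusted p under 0.05, 2 members (5%) were lower and 0 higher, against 3.2% and 2.53% of all probe sets. These were Gla and Atp6v0a1, and Atp6ap1 came next with -0.19 (standard error 0.09, adjusted p = 0.845). The count of 2 was 6 without YSR array 3, 5 without OSR array 1 and 4 without OR array 1 or OR array 3.

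In the interaction, which asks whether the effect of age differed with fixation, 3 members (7.5%) had a positive and 1 (2.5%) a negative value at an unadjusted p under 0.05, against 2.37% and 1.43% of all probe sets. The positive ones were Gusb, Atp6v1h and Atp6v0e1, and the negative one was Ctsc. Atp6v1h had 0.46 (standard error 0.19, adjusted p = 0.99) and Atp6v0e1 0.37 (standard error 0.15, adjusted p = 0.99). The positive count was 1 without YSR array 1, YSR array 2, YR array 1, OR array 1 or OR array 2, and 0 without OSR array 2. The negative count was 0 without OSR array 3 or OR array 2. Atp6v0e1, a small subunit of the membrane ring, read 12.81, 12.61 and 12.69 in the YSR arrays, 12.41, 12.59 and 12.65 in YR, 12.53, 12.45 and 12.53 in OSR and 12.67, 12.80 and 12.70 in OR. All OSR arrays lay below all YSR arrays, and all OR arrays above all YR arrays. Over all probe sets, 16292 of 31042 had a positive interaction (median 0.03), and 3980 of the 7761 brightest. By sign, 13 of 14 pump subunits had one, Atp6v0a1 being the exception, and the pump median was 0.22. That median was 0.11 without YSR array 1 and 0.12 without OSR array 1 or OR array 1. For cathepsins the median was -0.16 and 7 of 8 were negative, and the median was -0.001 without OR array 2 and -0.303 without OSR array 1.

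By sign all 14 pump subunits were lower in old animals (11 after quantile normalization), and most differed little. Atp6v1a and Atp6v1b2, which form the catalytic head, gave -0.06 and -0.10, Atp6v1c1 -0.09, Atp6v1d -0.05 and Atp6v1f -0.12. The second probe sets of Atp6v1a and Atp6v1b2, with mean log2 signals of 10.77 and 11.49, had the opposite sign, at 0.15 and 0.24 for age. The ring subunits Atp6v0b and Atp6v0c gave -0.01 and -0.10. Tcirg1, the a3 subunit on which osteoclasts depend, gave -0.07 (standard error 0.09, adjusted p = 0.854) and read 11.32, 11.56 and 11.41 in the YSR arrays, 11.34, 11.31 and 11.22 in YR, 11.25, 11.43 and 11.33 in OSR and 11.30, 11.42 and 11.03 in OR. The groups overlapped throughout. A dimmer probe set of Tcirg1 gave an interaction of 0.71, against 0.05 for the brighter one. For YR minus YSR the dimmer one gave -0.68 (standard error 0.23, adjusted p = 0.991), and all its YR arrays lay below all its YSR arrays.

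Members with and without the extended E-box can be set side by side. Of the 8 measured members with GTCACGTG in the promoter window, 6 were lower by sign in old animals (median -0.18), and of the 26 without it 25 were (median -0.15). For OR minus YR, 5 of 8 and 20 of 26 were lower by sign, with medians of -0.10 and -0.21. Of the factors that bind this element, Tfeb had a mean log2 signal (± SD, n = 3 arrays) of 9.64 ± 0.19 for YSR, 9.30 ± 0.26 for YR, 9.27 ± 0.06 for OSR and 9.21 ± 0.20 for OR, with -0.37 (standard error 0.17, adjusted p = 0.959) for OSR minus YSR. For age, Tfe3 differed by -0.33 (standard error 0.14, adjusted p = 0.548) and Mitf by -0.28 (standard error 0.19, adjusted p = 0.719).

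A further 57 lysosome genes were listed, of which 47 were measured and none passed in any comparison of all 12 arrays. At an unadjusted p under 0.05, 9 (19.1%) were lower and 3 (6.38%) higher in OR than in YR, against 3.54% and 4.8% of all probe sets and 7.07% and 5.23% of the brightest 25%. In old animals 10 (21.3%) were lower and 3 (6.38%) higher, against 3.89% and 4.7% of all and 8.75% and 5.14% of the brightest. Acp5, the acid phosphatase of osteoclasts, read 10.56, 11.04 and 10.67 in the YSR arrays, 10.16, 10.27 and 10.34 in YR, 11.25, 11.06 and 10.89 in OSR and 12.38, 11.21 and 11.67 in OR. All OR arrays stood above all YR arrays, and the difference was 1.50 (standard error 0.24, adjusted p = 0.146) for OR minus YR and 0.90 (standard error 0.17, adjusted p = 0.129) for age. Without OR array 2 it was 1.77 for OR minus YR and passed (adjusted p = 0.048). Ctsk, the collagen-degrading cathepsin of osteoclasts, read 12.44, 13.29 and 12.60 in the YSR arrays, 12.29, 12.30 and 12.32 in YR, 12.60, 12.71 and 13.03 in OSR and 13.92, 12.91 and 12.71 in OR. It too was higher in all OR than in all YR arrays, with 0.88 (standard error 0.28, adjusted p = 0.401), and this was 0.51 without OR array 1. Arsb, a sulfatase of dermatan sulfate breakdown, was higher in the same way, with 0.89 (standard error 0.18, adjusted p = 0.207) for OR minus YR and 0.57 (standard error 0.12, adjusted p = 0.207) for age.

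Lower values were seen for Dnase2, which degrades the DNA of engulfed cells. It read 10.83, 10.83 and 10.66 in the YSR arrays, 10.49, 10.74 and 10.73 in YR, 10.34, 10.53 and 10.73 in OSR and 9.69, 9.96 and 10.13 in OR. All OR arrays were below every array of the other groups, and the difference was -0.72 (standard error 0.15, adjusted p = 0.207) for OR minus YR, -0.48 (standard error 0.10, adjusted p = 0.203) for age and -0.61 (standard error 0.15, adjusted p = 0.872) for OR minus OSR. Grn, the progranulin precursor, differed by -0.37 (standard error 0.11, adjusted p = 0.311) for age, and Cd68, a glycoprotein of macrophage lysosomes, by -0.42 (standard error 0.17, adjusted p = 0.555) for OR minus YR. The interaction was 1.19 (standard error 0.33, adjusted p = 0.99) for Acp5 and 0.64 (standard error 0.25, adjusted p = 0.99) for Arsb. It was -0.48 for Dnase2 and 2.65 for the pump subunit Atp6v1g2, which was dim (mean log2 signal 4.74) and gave 2.23 for OR minus OSR.

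**Figure D4:**
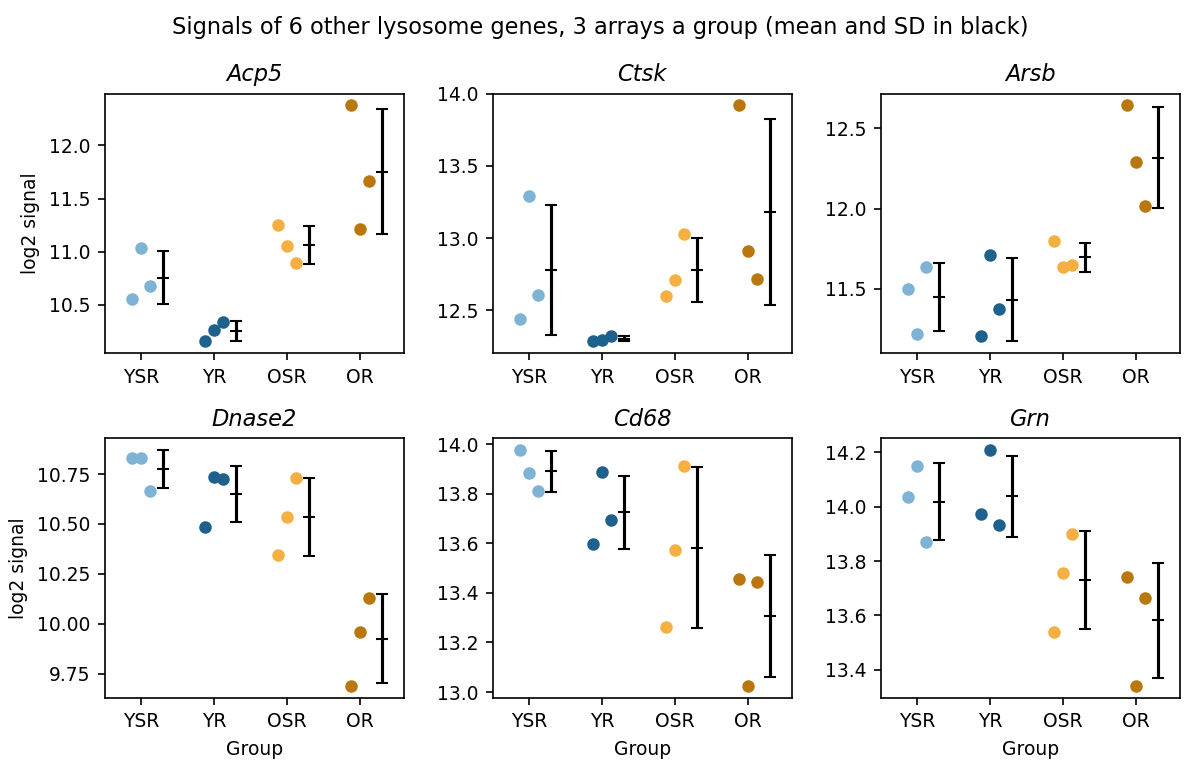
Log2 signal of 6 lysosome genes outside the list of members in each array (coloured points) with the group mean and SD in black (n = 3 arrays). Acp5, Ctsk and Arsb are higher in all OR than in all YR arrays, and Dnase2 is lower in OR than in all other arrays.

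Markers of the cells that are rich in lysosomes differed between the same groups. The summed signal of 10 measured macrophage markers of 12 was 46384 to 62507.5 in YSR, 44779 to 49087 in YR, 35974 to 46983 in OSR and 24830 to 38401.5 in OR, so that OR lay below both young groups in this sum. In the mean log2 deviation of the same markers, OR array 3, at 0.047, lay above YR array 1, at 0.001. The top of the YSR range was array 1, with the Gapdh ratio of 6.69, where Adgre1 read 13.61, against 10.24 and 10.11 in the other YSR arrays. The scavenger receptor Stab1 read 12.51, 12.44 and 12.61 in the YSR arrays, 12.82, 12.76 and 12.78 in YR, 12.03, 12.39 and 12.56 in OSR and 11.43, 11.49 and 11.56 in OR. It was lower in OR than in YR, with a difference of -1.29 (standard error 0.13, adjusted p = 0.00921) that passed the test. The call was lost without YR array 1 (adjusted p = 0.118), YR array 3 (0.0925), OR array 1 (0.0988) or OR array 3 (0.0641), without both arrays of highest Gapdh ratio (0.0519), without the intensity trend (0.272) and by the methods' test (0.112), while the difference stayed between -1.33 and -1.24. For age Stab1 passed with -0.74 (standard error 0.09, adjusted p = 0.0447), but of the 12 fits that left out 1 array only those without OSR array 1 or OSR array 3 kept that call, and the adjusted p reached 0.263 without YR array 1. Mrc1, Cd163, Cd14 and Aif1 gave -0.96, -0.99, -0.77 and -0.52 for OR minus YR and did not pass. Csf1r was closer, with 12.77, 12.87 and 12.74 in YR and 12.57, 12.60 and 12.65 in OR. Adgre1 read 10.14, 10.13 and 9.84 in YR and 9.21, 8.49 and 9.68 in OR. Marco and Msr1 had no probe set of 1 symbol. The complement genes C1qa, C1qb and C1qc gave 0.25, -0.06 and 0.17. The part of macrophage markers in the differences of the members was not tested.

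The 6 measured osteoclast markers of 10 had a summed signal of 8728 to 13496 in YSR, 7223 to 8311 in YR, 11173 to 12424.5 in OSR and 15908 to 28246 in OR. For OR minus YR the log2 difference was 3.83 for Slc9b2, 3.49 for Mmp9, 1.50 for Acp5, 0.88 for Ctsk and within 0.01 of 0 for the osteoclast transcription factor Nfatc1, and none passed. For OSR minus YSR Nfatc1 gave -0.25. Calcr was dim, with a highest log2 signal of 6.40, and Oscar, Dcstamp, Ocstamp and Atp6v0d2 had no probe set of 1 symbol. Acp5 and Ctsk belong to both this list and the further lysosome genes. The 7 measured neutrophil markers of 11 summed to 9145 to 17216 in YSR, 10910 to 49832 in YR, 22835 to 65794 in OSR and 35963 to 92705 in OR. Array by array, the mean deviation of all members from their overall mean was 0.176, 0.189 and 0.02 in YSR, -0.019, 0.122 and -0.071 in YR, -0.145, -0.042 and 0.131 in OSR and -0.014, -0.242 and -0.107 in OR. OR array 2 was lowest in this measure and in that of macrophage markers, at -0.865. The lowest arrays for the members, OR array 2, OSR array 1 and OR array 3, were also those with low skeletal muscle markers, at -3.464, -2.856 and -1.704, whereas the other 9 arrays lay between 0.092 and 2.07. Endothelial markers were at 0.631, 1.323 and 0.34 in OR and 0.714 in OSR array 1, and at or below -0.004 in the rest. Adipocyte markers were at 0.814, 1.488 and 1.536 in OR and 0.99 in OSR array 1, and at or below -0.021 in the rest. The part of these other cells in the differences was not tested.

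**Figure D5:**
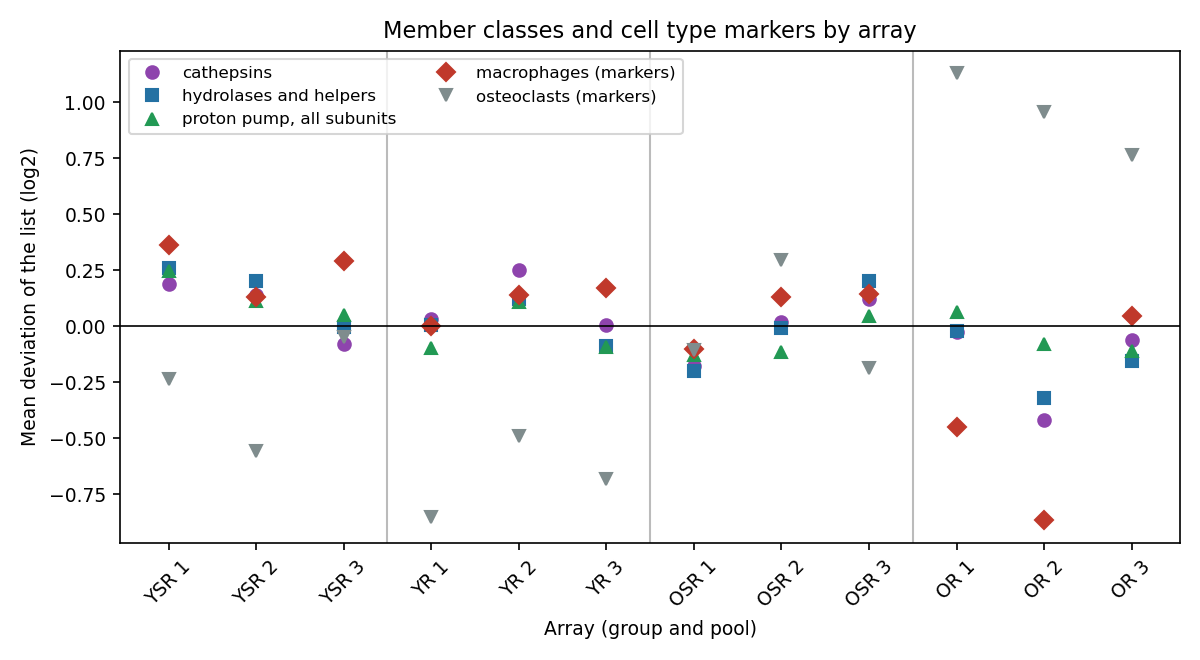
Mean deviation (log2) of 3 classes of members and of the macrophage and osteoclast markers from their mean over the 12 arrays, by array. Macrophage markers and cathepsins are lowest in OR array 2, and osteoclast markers are highest in the 3 OR arrays.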

How the data were processed

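The authors deposited linear signal intensities for 31099 probe sets on 12 arrays, which their processing notes credit to GCOS 1.2; the methods name PLIER summaries, which were not used here. Signals were raised to at least 1 and taken to log2, and 57 control probe sets were left out. Of the probe sets, 20832 had 1 gene symbol, 436 several and 9831 none.

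Groups were compared with limma 3.58.1 (R 4.3.3; lmFit, then eBayes with a trend on intensity) over 31042 probe sets and all arrays, two-sided, with Benjamini-Hochberg adjustment over all of them and a call at 0.05. The brightest probe set stood for a gene. Signs compare group means only. Named members had an unadjusted p under 0.05, at most 8 a comparison and at least the 3 smallest. Of the further lysosome genes at most 4 a comparison were picked under the same threshold, and not all of these were described. Tfe3, Mitf, Cd68 and the cell type markers were named after their values were seen. Members and lists were chosen with earlier results of these data known. P-values measure the spread between pools of 3 animals, and the number of arrays limits the precision.

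Alternatives were quantile normalization, a pseudocount of 16, no dim probe sets, no intensity trend, a fit on the arrays compared alone, the methods' test, a replicate block, the mean over all probe sets of a gene, and leaving out each array or both with the highest Gapdh ratio. Promoter motifs were searched on both strands. The scripts were tested on simulated data.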

Additional observations from a re-analysis of the deposited data

Results flagged for a closer look

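Atp6v0e1, a small subunit of the membrane ring of the proton pump, stood out because age ran in opposite directions under the 2 fixators. All 3 OSR arrays lay below all 3 YSR arrays and all 3 OR arrays above all 3 YR arrays, and the interaction was 0.37 on the log2 scale (adjusted p = 0.99, limma), which did not pass.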

How the results depend on the processing

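The count of 0 called members was the same in all 144 alternative values over the 7 comparisons. In the main fits 0 to 2 of 31042 probe sets were called in a comparison, so a count of 0 says little about these members. Counts at an unadjusted p under 0.05 moved by over 1.5 times in 72 of 288. The count of members lower with age, 7, ranged from 1 without the intensity trend to 10 without OSR array 3. That for OR minus YR, 6, ranged from 2 to 9 under quantile normalization. The count of members lower by sign stayed between 33 and 37 for age, 23 and 31 for OR minus YR, and 31 and 37 for OSR minus YSR. The cathepsin median for YR minus YSR was 0.056, but -0.053 after quantile normalization, and the cause was not tested. Of 678 values of named members, 677 kept their sign and their side of the threshold. The exception was Lamp1 for age, at 0.008 when the mean over all its probe sets, 2 of them dim, replaced the brightest. For a pair of groups, leaving out an array of another group or changing only the variance estimate left the difference as it was. Such values could not change sign, and the lowest adjusted p of a named member was 0.138 (Naglu for age, limma). Of 510 values of Stab1 and the picked further lysosome genes, 22 lost the call, all of Stab1, and 1 gained it (Acp5 for OR minus YR, without OR array 2). The 510 values included Cstb, Gnptab, Man2b1 and Acp2, which were not described above, and left out Cd68, Tfe3 and Mitf. By the methods' test 0 of 40 members reached a p under 0.05 with a fold above 2 in each comparison, against 467 to 795 of 31042 probe sets. These are a small share and include dim probe sets, so 0 of 40 does not set the members apart. Without the 2 arrays of highest Gapdh ratio, the 1 member higher with age became 0.

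Replicate numbers did not pair the arrays. Deviations of same-numbered arrays had a median correlation of 0.019 over 18 pairs (-0.412 to 0.405), against 0.02 over 36 other pairs. With the replicate block 0 members were called in every comparison, and the counts at an unadjusted p under 0.05 were within 1.5 times of those without it except for YR minus YSR (1 lower became 0) and OR minus OSR (2 higher became 0). For the marker Stab1 the block gave an adjusted p of 0.0327 for OR minus YR and 0.113 for age.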
